A study of Mus musculus with 24 samples.

Results

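The measurements set RNA captured by an antibody to N6-methyladenosine (m6A), the IP libraries, against input RNA from the same kind of tissue, the lumbar (L4/5) dorsal root ganglia (DRG) of naive mice. The ganglia hold the cell bodies of the sensory neurons whose axons run in the sciatic nerve, together with satellite glia, Schwann cells, vessels and immune cells. The comparison was chosen by label: 3 naive IP libraries (IP 1, IP 2 and IP 3) and 2 naive inputs (input 1 and input 2), 5 of the 24 samples of the series. All 5 came from wild-type C57BL/6 animals. The IP libraries were made with a Synaptic Systems antibody and the inputs with none. A matching set of 5 libraries, 3 IP and 2 input, came from wild-type C57BL/6 ganglia 1 day after a sciatic nerve lesion (SNLD1) and is used here only where the naive values are set beside it. The naive libraries carry a treatment text that names a sham operation or a crush, so whether these controls were sham-operated was not settled. The labels do not say whether replicates are separate animals or pools, so each p-value covers only how much these libraries vary, which may be technical.

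m6A is placed on messenger RNA in the nucleus by the Mettl3-Mettl14 complex with adaptors such as Wtap, Rbm15 and Rbm15b, mostly at the DRACH motif in long internal exons and near stop codons. It can be removed by Fto and Alkbh5, and it is bound by readers of the YTH family that steer decay and translation. In sensory ganglia the mark is known for its part in the response of neurons to axon injury.

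The 5 naive libraries differed in depth and in how far they resembled one another. Totals were 9736415 counts in input 1, 12289449 in input 2, 9675421 in IP 1, 846785 in IP 2 and 4916603 in IP 3. Levels are given as CPM (counts scaled to a common TMM-adjusted library total), and a single count was worth 0.942 CPM in IP 2 against 0.0779 CPM in IP 1, so low levels in IP 2 come in coarse steps. Of the 14705 genes tested, 14.9% had no count in IP 2 and 1.12% had none in IP 1. Across these genes the Spearman correlation was 0.89 between the inputs, 0.81 between IP 1 and IP 2, and 0.88 and 0.91 between IP 3 and the inputs. IP 3 correlated less with the other IP libraries, at 0.79 with IP 1 and 0.75 with IP 2. Each IP library was therefore described apart. Enrichment in an IP library is its log2 CPM (prior count 2) minus the mean log2 CPM of the 2 inputs. The median enrichment of all tested genes was 0.16 in IP 1, -0.31 in IP 2 and -0.06 in IP 3, and with library totals alone as the scale it was 0.85, 0.26 and 0.09. A class is therefore read against the median of all genes on the same scale.

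The tissue label was met by the markers of sensory neurons. Of 16 listed names, which give Avil a second time as Advillin, 15 were in the table and tested. Their summed level ran from 13340 CPM in IP 1 to 23506 CPM in input 1. Markers of other cells differed between libraries of 1 kind. The 11 tested neutrophil markers summed to 3152 CPM in input 1 and 180 CPM in input 2, and to 882, 4102 and 240 CPM in IP 1, IP 2 and IP 3. The 14 Schwann cell markers summed to 8320 and 3958 CPM in the inputs and to between 2129 and 2568 CPM in the IP libraries. In bulk tissue fewer cells of a type and less RNA per cell cannot be told apart, and the part of these markers in the results below was not tested.

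No gene passed the test of IP over input over all genes, 0 of 14705 higher (0% of genes) and 0 lower (0%), with edgeR's quasi-likelihood test and a smallest adjusted p of 0.71. At an unadjusted p under 0.05, 357 genes were higher (2.43%) and 558 lower (3.79%), and DESeq2 called 1 gene higher, Map3k11, and 0 lower. A planned edgeR fit with a replicate block within condition called 0 of the 14705 genes higher and 150 lower. IP 3 has no input of its number and adds nothing to that contrast. IP and input libraries of 1 number did not deviate together, so that fit was not used for the classes below. The median standard error of a log2 fold change was 1.08. All 3 IP libraries lay above both inputs for 1870 genes (12.7%) and below both for 2420 (16.5%). IP 1 and IP 2 alone lay above both inputs for 3537 genes (24.1%) and below both for 4277 (29.1%). With library totals alone as the scale, the genes with all 3 IP libraries on 1 side split into 2765 above and 1586 below, 63.55% above against 43.59% with TMM. A fit to the 4 naive libraries without IP 3, added after the data were seen, called 529 of 14031 genes lower (3.77%) and 9 higher (0.0641%), whereas the same fit without any other single library called 0. Leaving IP 3 out of the fit that also holds the SNLD1 libraries called 0 genes in either direction, with a smallest adjusted p of 0.127. The calls quoted below as made without IP 3 are those of the 4-library fit. Of those 529 genes, 377 also had IP 3 below both inputs, beside 2420 of the 4277 genes with IP 1 and IP 2 below both. The genes were called against these same inputs, so the 377 are no separate evidence from IP 3.

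Housekeeping transcripts were among the classes farthest below the inputs in IP 1 and IP 2. The 82 tested genes of the cytoplasmic ribosomal proteins, 81 of them protein-coding, which with rRNA make up the translating ribosome, summed to 22270 and 20760 CPM in the inputs, 1959 in IP 1, 1847 in IP 2 and 25490 in IP 3. IP 1 and IP 2 thus held about the same low level, while IP 3 held as much as the inputs. Median enrichment was -3.63 in IP 1, -3.99 in IP 2 and 0.34 in IP 3, and relative to all genes the mean of the 3 libraries was -2.36 ± 2.39 (SD, n = 3). Both IP 1 and IP 2 lay below both inputs for 80 of the 82 genes (97.6%, against 29.1% of all genes), and all 3 IP libraries did for 26 (31.7%, against 16.5%). In the fit without IP 3, 61 of 80 were called lower, against 3.77% of all genes. The 32 small-subunit genes had medians of -4.01 and -4.67 in IP 1 and IP 2, and the 48 large-subunit genes -3.42 and -3.69. Ribosomal protein genes have many near-identical pseudogene copies, so their counts are uncertain where reads were shared.

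The 3 ribosomal protein genes shown first are among the 26 of 82 with all 3 IP libraries below both inputs. In IP 3, 52 of the 82 genes had an enrichment above 0. Rplp2, a protein of the ribosomal stalk, stood at 208 and 126 CPM in the inputs and at 4.06, 2.83 and 63.3 CPM in IP 1, IP 2 and IP 3. All 3 IP libraries lay below both inputs, IP 3 by the least; the log2 fold change was -2.81 (SE 1.14, adjusted p = 0.71) with all libraries and -5.58 (adjusted p = 0.0154) without IP 3. Rps21, of the small subunit, stood at 259 and 247 CPM in the inputs and at 14.2, 4.71 and 84.7 CPM in the IP libraries. Rpl22, of the large subunit, stood at 163 and 153 CPM against 8.35, 8.48 and 77.0 CPM. These 3 genes were the members of smallest p and share 1 picture, with IP 1 and IP 2 far under the inputs and IP 3 between. Rplp0, which holds the stalk to the ribosome, had the lowest IP 1 enrichment of the 82 genes, -7.53: 589 and 400 CPM in the inputs, 2.34 and 7.54 in IP 1 and IP 2, and 361 in IP 3. It was named after its values were seen, as were the exceptions. Rps4l, a transcribed pseudogene in the annotation, was the 1 member with IP 1 and IP 2 above both inputs, at 43.5 and 73.5 CPM against 39.9 and 25.6. Rpl26 had no count in 4 libraries and 6.38 CPM in IP 3.

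**Figure D1:**
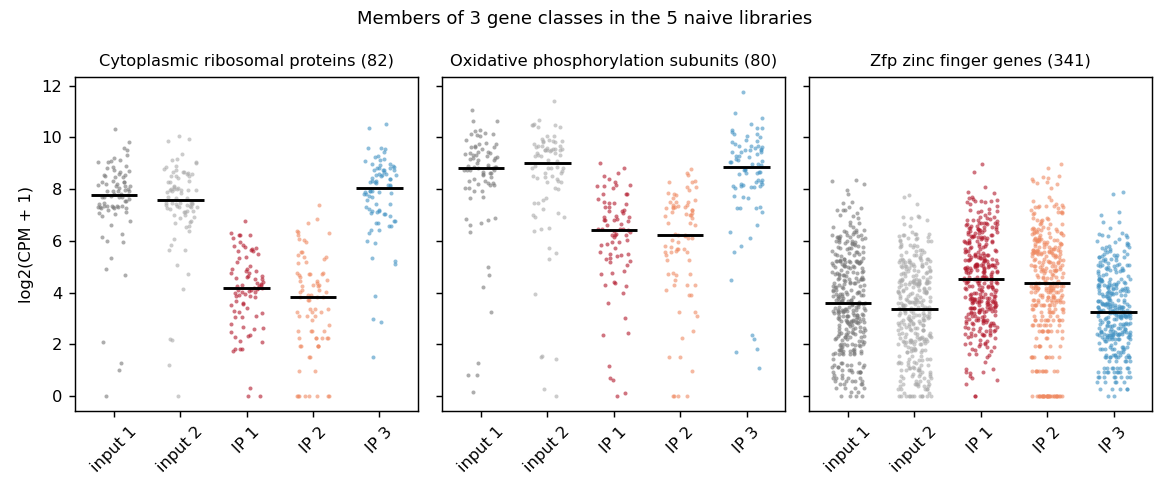
Level of each member of 3 gene classes in the 5 naive libraries, as log2(CPM + 1); each point is a gene and the bar is the class median. The 82 ribosomal protein genes and 80 oxidative phosphorylation genes sit lower in IP 1 and IP 2 than in the inputs and IP 3, and the 341 Zfp genes sit higher in IP 1 and IP 2.

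The nuclear genes for the respiratory chain and ATP synthase were also low in IP 1 and IP 2 and near the inputs in IP 3. The 80 tested members summed to 42290 and 46670 CPM in the inputs, 9213 and 8682 CPM in IP 1 and IP 2 and 45950 CPM in IP 3. Their median enrichment was -2.30, -2.51 and -0.09. IP 1 and IP 2 lay below both inputs for 73 of 80 (against 29.1% of all genes) and all 3 IP libraries for 33 (41.2%, against 16.5%). Without IP 3, 26 of 77 were called lower, against 3.77% of all genes. By complex, the medians in IP 1 and IP 2 were -2.47 and -2.32 for 36 complex I genes, -3.76 and -2.51 for 4 complex II genes, -1.42 and -1.81 for 8 complex III genes, -2.31 and -3.49 for 15 complex IV genes and -2.21 and -2.92 for 16 ATP synthase genes. The median of each complex was thus below 0 in both libraries.

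Ndufb5, an accessory subunit of complex I, stood at 463 and 409 CPM in the inputs, 18.2 and 8.48 in IP 1 and IP 2 and 154 in IP 3. Its log2 fold change was -2.85 (SE 1.06, adjusted p = 0.71), and -5.03 (adjusted p = 0.0154) without IP 3. Cox7a2, a subunit of cytochrome c oxidase, stood at 1125 and 1358 CPM in the inputs and 86.6, 49.95 and 390 CPM in the IP libraries. Sdhc, a membrane anchor of succinate dehydrogenase, stood at 288 and 126 CPM against 14.9, 8.48 and 80.2 CPM. In all 3 genes no IP library reached the lower input. Exceptions, named after their values were seen, were Ndufb7, at 240 and 262 CPM in the inputs and 280, 223 and 574 CPM in the IP libraries, and Ndufa12, at 205 and 388 CPM against 223, 165 and 859 CPM. Both lay near the inputs in IP 1 and IP 2 and had their highest level in IP 3.

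The proteasome, which degrades ubiquitin-tagged proteins, gave 38 tested genes with medians of -2.29, -1.85 and 0.37. Of these 31 (81.6%, against 29.1% of all genes) lay below both inputs in IP 1 and IP 2, 9 (23.7%, against 16.5%) in all 3, and 10 were called lower without IP 3, against 3.77%. The 18 genes of the core and the 20 of the regulatory particle had like medians in IP 1, -2.32 and -2.27, but -2.30 and -1.67 in IP 2. All 3 IP libraries lay below both inputs for 2 of the core genes and 7 of the regulatory ones. The 57 translation factors had medians of -1.48, -1.62 and 0.11. Within them Eif4g1, the large scaffold of the cap-binding complex, went the other way: 5.15 and 10.3 CPM in the inputs and 93.8, 29.2 and 23.7 CPM in the IP libraries, a log2 fold change of 2.66 (SE 1.18, adjusted p = 0.71). Eif5a2, a small elongation factor, stood at 598 and 254 CPM against 75.6, 36.8 and 103 CPM. The 74 splicing and RNA-binding protein genes had medians of -0.75, -1.94 and 0.09.

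Mitochondrial ribosomal proteins, which translate the mitochondrial genome, lay below the inputs in IP 1 and IP 2 by less than the cytoplasmic ones. Their 77 tested genes had medians of -0.40, -0.72 and 0.61. IP 1 and IP 2 lay below both inputs for 41 (53.2%, against 29.1% of all genes). For 21 of them all 3 IP libraries lay above both (27.3%, against 12.7%), and for 8 below both (10.4%, against 16.5%). Mrps26 stood at 6.31 and 8.90 CPM in the inputs and 109, 42.4 and 34.9 CPM in the IP libraries (log2 fold change 3.03, SE 1.02, adjusted p = 0.71). Mrpl42 stood at 309 and 644 CPM against 52.5, 46.2 and 212 CPM. The class thus held members on both sides of the inputs.

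Transcripts often used as references were among the low ones. Of 12 listed, 11 had IP 1 and IP 2 below both inputs (against 29.1% of all genes) and 7 had all 3 IP libraries below (58.3%, against 16.5%). Hprt, of purine salvage, stood at 1181 and 1195 CPM in the inputs and at 98.4, 140 and 596 CPM in the IP libraries (log2 fold change -2.10, SE 0.95, adjusted p = 0.71). Gapdh, of glycolysis, stood at 1031 and 370 CPM in the inputs and at 7.88, 24.5 and 593 CPM in the IP libraries. IP 3 lay between the inputs for Gapdh, so its groups overlap. Actb, encoding beta-actin, stood at 1302 and 9416 CPM against 456, 432 and 1104 CPM, and the inputs differed from each other by more than IP 3 differed from input 1. Actb and Gapdh also have near-identical pseudogenes.

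Host genes of small nucleolar RNAs, whose spliced exons have no long reading frame, were low as well. The 14 tested Snhg genes had medians of -1.52, -3.60 and -0.84, and 9 had all 3 IP libraries below both inputs (16.5% of all genes). Snhg8 stood at 26.3 and 21.2 CPM in the inputs and at 0.624, 0 and 4.78 CPM in the IP libraries. Gas5, another host gene, stood at 364 and 356 CPM against 32.5, 38.6 and 156 CPM (log2 fold change -2.25, SE 0.89, adjusted p = 0.71; -3.39 and adjusted p = 0.0263 without IP 3). Malat1, a long nuclear RNA known to carry m6A, overlapped the inputs, at 2473 and 5867 CPM in the inputs and 5286, 5503 and 4146 CPM in the IP libraries.

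**Figure D2:**
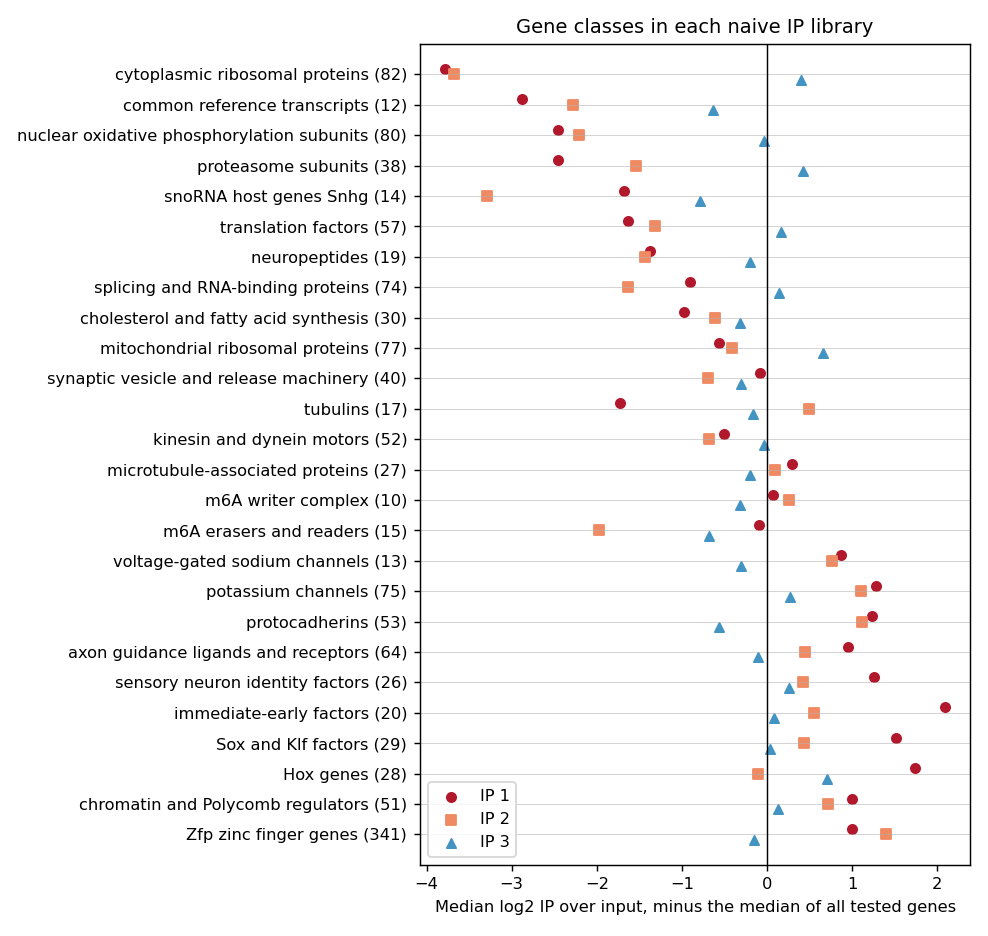
Median log2 IP over input of 26 gene classes in each naive IP library, minus the median of all tested genes in that library; the number of tested genes is in brackets. Ribosomal protein, reference, oxidative phosphorylation and proteasome genes lie to the left in IP 1 and IP 2, zinc finger, chromatin, potassium channel and sodium channel genes to the right, and IP 3 stays nearer 0 for most classes.

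Transcription and chromatin regulators lay on the other side. The 341 tested Zfp genes, zinc finger proteins most of which bind DNA, had median levels of 11.2 and 9.41 CPM in the inputs, 22.1 and 19.8 CPM in IP 1 and IP 2 and 8.43 CPM in IP 3. Their median enrichment was 1.16, 1.09 and -0.21. IP 1 and IP 2 lay above both inputs for 202 (59.2%, against 24.1% of all genes) and below both for 16 (4.69%, against 29.1%). All 3 IP libraries lay above for 64 (18.8%, against 12.7%). None of 328 was called in either direction without IP 3. Zfp688 stood at 2.32 and 3.24 CPM in the inputs and at 33.3, 12.3 and 14.8 CPM in the IP libraries (log2 fold change 2.86, SE 1.10, adjusted p = 0.71). Zfp367 was an exception, at 63.4 and 120 CPM against 15.9, 16.0 and 32.6 CPM. Zinc finger genes form large families of similar sequence, so some counts are uncertain.

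The 51 chromatin and Polycomb regulators had medians of 1.16, 0.40 and 0.07. The inputs differed for this class, with a median of -0.93 for log2 input 1 minus log2 input 2. Hox genes (28 tested), which keep a record of position along the body axis, had medians of 1.89 in IP 1, -0.41 in IP 2 and 0.65 in IP 3, and the 20 immediate-early factors 2.26, 0.24 and 0.03. The 29 Sox and Klf factors had 1.68, 0.13 and -0.02. These 3 classes stood far above the inputs in IP 1, the deepest IP library, and near or below them in IP 2. Relative to all genes, the IP 2 medians were -0.10 for Hox genes, 0.55 for immediate-early factors and 0.44 for Sox and Klf factors. Klf2, a zinc finger factor, stood at 2.58 and 3.44 CPM in the inputs and 38.7, 11.3 and 6.61 CPM in the IP libraries (log2 fold change 2.66, SE 1.17, adjusted p = 0.71). Isl2, a LIM homeodomain factor of sensory and motor neurons, stood at 13.8 and 26.1 CPM against 174, 27.3 and 63.3 CPM. For both genes every IP library lay above both inputs, in Isl2 by a small margin in IP 2.

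Among neuronal genes, potassium and sodium channels lay above the median of all genes in IP 1 and IP 2, and TRP, Piezo and calcium channels lay below it in IP 2. The 75 tested potassium channel genes had medians of 1.44, 0.80 and 0.22; IP 1 and IP 2 lay above both inputs for 42 (56.0%, against 24.1%), and all 3 IP libraries for 23 (30.7%, against 12.7%). Relative to all genes the mean over the 3 libraries was 0.89 ± 0.54 (SD, n = 3). Kcnj8, the pore of an ATP-sensitive channel, stood at 1.29 and 1.32 CPM in the inputs and 11.3, 16.97 and 3.87 CPM in the IP libraries. Kcnip2, a small calcium-binding partner of Kv4 channels and not a pore, stood at 392 and 99.7 CPM against 8.35, 28.3 and 57.2 CPM. The 13 sodium channel genes had medians of 1.02, 0.46 and -0.37, and 8 (61.5%, against 24.1% of all genes) had IP 1 and IP 2 above both inputs, but 2 (15.4%, near the 12.7% of all genes) had all 3. Scn10a, which encodes Nav1.8 of nociceptors, stood at 144 and 304 CPM in the inputs and 662, 528 and 346 CPM in the IP libraries, a log2 fold change of 1.19 (SE 0.88, adjusted p = 0.729). The 64 axon guidance genes had medians of 1.11, 0.14 and -0.16. The 53 protocadherins had medians of 1.40, 0.81 and -0.61, so that IP 3 was on the other side of the inputs.

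Neuropeptide and processing genes (19 tested) had medians of -1.22, -1.74 and -0.25, and 12 (63.2%, against 29.1% of all genes) had IP 1 and IP 2 below both inputs. For 5 genes all 3 IP libraries lay below both inputs (26.3%, against 16.5%), and for 4 above both (21.1%, against 12.7%). Gal, encoding galanin, stood at 115 and 207 CPM in the inputs and 8.50, 24.5 and 89.5 CPM in the IP libraries. The 40 genes of the synaptic vesicle and release machinery had medians of 0.08, -0.999 and -0.37. Within them Snap25, a SNARE protein, stood at 7867 and 5375 CPM against 738, 1668 and 1800 CPM. Lipid synthesis was low too: of 30 tested genes of cholesterol and fatty acid synthesis 13 had all 3 IP libraries below both inputs (43.3%, against 16.5%). Scd1, a fatty acid desaturase, stood at 1153 and 825 CPM in the inputs and 153, 131 and 261 CPM in the IP libraries (log2 fold change -2.45, SE 0.79, adjusted p = 0.71). Pmp22, a myelin protein of Schwann cells, stood at 5260 and 2595 CPM against 368, 634 and 1390 CPM. The summed Schwann cell markers are lower in the IP libraries as well, and their part here was not tested.

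Genes of axon growth and of the cytoskeleton lay on both sides of the inputs. The 38 regeneration-associated genes had medians of -0.40, -0.22 and -0.26. Relative to all genes these were -0.56 in IP 1, 0.09 in IP 2 and -0.21 in IP 3. All 3 IP libraries lay above both inputs for 3 of the genes (7.89%, against 12.7% of all genes) and below both for 3 (7.89%, against 16.5%). Atf3, a transcription factor of injured neurons, stood at 9.92 and 17.6 CPM in the inputs and 31.3, 154 and 13.2 CPM in the IP libraries, so IP 2 stood apart. Jun, its partner, stood at 6.83 and 41.2 CPM against 175, 34.9 and 30.5 CPM, with IP 1 apart. Sox11 stood at 7.98 and 94.0 CPM against 18.7, 12.3 and 7.97 CPM, and here input 2 stood apart. Gap43, a growth-cone protein, stood at 544 and 709 CPM against 247, 268 and 707 CPM. The neuronal tubulin Tubb3 ranged from 1306 to 5485 CPM in the inputs alone, and its IP levels of 1098, 5611 and 2352 CPM covered about the same range. Mapt, encoding tau, had every IP library above both inputs, at 75.6 and 121 CPM against 388, 175 and 291 CPM. Synm, an intermediate filament protein, did as well, at 104 and 148 CPM against 486, 352 and 243 CPM. Stmn2, a small tubulin-binding protein, was on the other side, at 5477 and 4564 CPM against 955, 615 and 2828 CPM.

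Transcripts of the m6A machinery mostly overlapped the inputs, as did 10415 of all 14705 tested genes. Of 10 tested writer complex genes 1 (10%, near the 12.7% of all genes) had all 3 IP libraries above both inputs, Rbm15b, at 2.58 and 7.79 CPM in the inputs and 28.6, 13.2 and 10.02 CPM in the IP libraries. Mettl3, the catalytic subunit, stood at 69.3 and 35.9 CPM against 5.07, 19.8 and 37.4 CPM. Mettl14, its partner, stood at 31.8 and 18.9 CPM against 21.5, 9.43 and 36.9 CPM. Wtap, the adaptor that holds the complex in nuclear speckles, stood at 11.0 and 77.4 CPM against 180, 49.0 and 100 CPM. Of the 15 erasers and readers 3 (20%, near the 16.5% of all genes) had all 3 IP libraries below both inputs, Hnrnpc, Rbmx and Ythdc2. None had all 3 above both inputs, against 12.7% of all genes. The reader Ythdf2 stood at 76.4 and 643 CPM in the inputs and 389, 120 and 121 CPM in the IP libraries, and Ythdf1 at 12.62 and 55.3 CPM against 88.2, 6.60 and 38.7 CPM. The erasers stood at 43.4 and 51.8 CPM against 54.9, 31.1 and 22.1 CPM for Fto, and at 10.3 and 64.9 CPM against 26.1, 0 and 25.1 CPM for Alkbh5. No member of either list had an unadjusted p under 0.05.

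The genes of smallest p above the inputs, among those with a mean of at least 5 CPM, were Map3k11, H2afx, Tbcc, Tor4a, Nfe2l3, Fem1a, Gadd45g, Tysnd1, Exosc6 and Rtp4. Map3k11, a kinase above JNK signalling, stood at 0.386 and 0.607 CPM in the inputs and 21.4, 16.97 and 10.3 CPM in the IP libraries, a log2 fold change of 4.97 (SE 1.31, adjusted p = 0.71) over input levels that rest on few counts. Tbcc, a tubulin folding cofactor, stood at 3.86 and 9.51 CPM against 191, 57.5 and 62.4 CPM (log2 fold change 3.95, SE 1.14). Fem1a, a substrate adaptor of an E3 ubiquitin ligase, stood at 11.7 and 12.2 CPM against 129, 175 and 56.9 CPM (log2 fold change 3.33, SE 1.04). In all 10 genes every IP library lay above both inputs. H2afx, encoding the histone variant H2AX, stood at 0.258 and 0.607 CPM against 36.2, 8.48 and 5.24 CPM, and Gadd45g, a growth arrest gene, at 4.12 and 2.73 CPM against 39.8, 90.5 and 11.8 CPM. Of this set 6 genes, Map3k11, H2afx, Tbcc, Fem1a, Gadd45g and Exosc6, were among the 9 called higher without IP 3. The other 3, named after their values were seen, were Nap1l5, Dedd2 and Vamp5, and Nap1l5 was the most abundant of the 9, at 136 to 2104 CPM over the 5 libraries.

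The genes of smallest p below the inputs were Ssr1, Nmt2, Gbas, Entpd2, Inpp4a, Kdelr2, Slc23a2, Tspo, Exoc2 and Plekhb2. Ssr1, a subunit of the translocon-associated complex of the endoplasmic reticulum, stood at 251 and 1985 CPM in the inputs and 91.0, 51.8 and 101 CPM in the IP libraries (log2 fold change -3.78, SE 0.92, adjusted p = 0.71). Plekhb2, a membrane-binding protein, stood at 1002 and 257 CPM against 13.3, 22.6 and 77.4 CPM. Exoc2, of the exocyst, stood at 93.0 and 87.7 CPM against 14.2, 4.71 and 14.1 CPM. In all 10 every IP library lay below both inputs. The inputs differed widely from each other in Nmt2, Gbas, Inpp4a and Kdelr2, for example 71.9 and 953 CPM for Gbas.

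**Figure D3:**
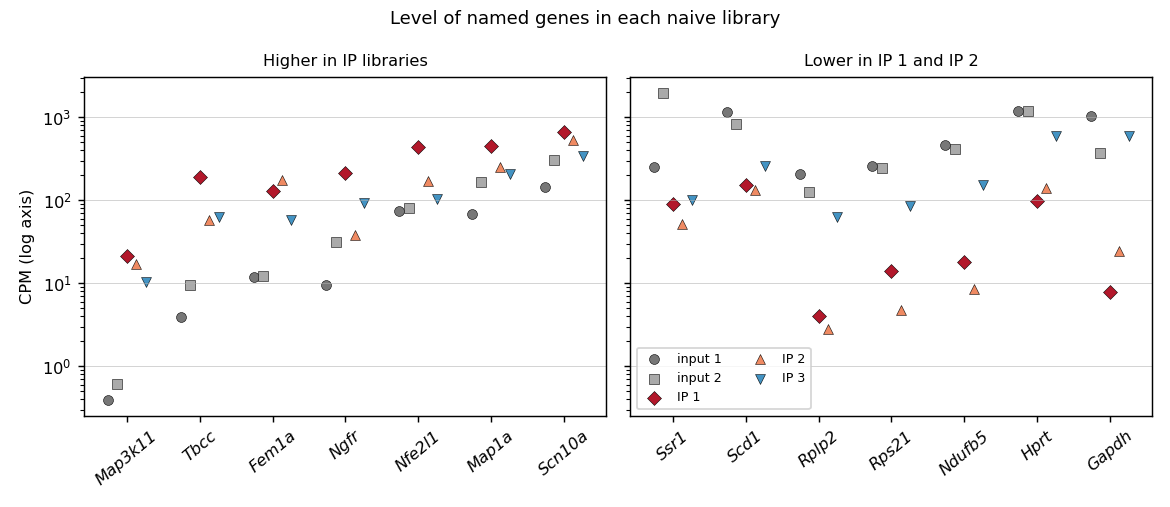
CPM (log axis) of 14 named genes in each of the 5 naive libraries; each symbol is a library. In the left panel every IP library lies above both inputs; in the right panel IP 1 and IP 2 lie below both inputs, and IP 3 lies nearer to the inputs for Rplp2, Rps21, Ndufb5, Hprt and Gapdh.

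Single m6A sites from miCLIP, which marks a methylated base by mutations left at an antibody crosslink, gave a separate readout of the same tissue. The naive list, from 1 library, held 14446 sites, each at the central A of a DRACH 5-mer, with a median of 4 reads over the site. Of these sites, 297 had at least 3 mutated reads, so most calls rest on fewer. At least 1 site fell in the span of 4561 of the 14705 genes tested (31.0%). The 5-mers that start with GGAC made up 39.0% of all sites, 41.2% of 3157 sites in genes with all 3 IP libraries above both inputs and 34.8% of 926 in genes with all below. A site was found in 47.5% of the 1870 genes above, 19.6% of the 2420 genes below and 30.7% of the rest. Sites were counted in gene spans without regard to strand or exons. The labels give the same antibody for both assays.

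The windows show sites in the first 50 bases of transcripts, with the listed 5-mer in capitals and its central base the A listed as methylated. Each of the sites shown rests on 1 mutated read. They are written 5′ to 3′ on the transcript strand, from RefSeq on GRCm38.p6. They are 4 of most reads on each side, with ties in reads taken in the order of gene names (Hspa5 tied with Chpf), first 4 genes with all 3 IP libraries above both inputs and then 4 with all below, chosen after their values were seen; genes on both sides held a listed site.
Asic2: tgcaggggGGACTcatctcag
Egln2: gctcctagAGACAactgtgga
Ywhag: tgtgggcgGGACCgcaggggg
Chpf: gagacaggGGACTccgccccc
Otub1: cggcggagGAACCtcagcagc
Atp6v0b: gggccgacAGACTgcggggcg
Dynlt3: gcagctgaGGACCtggacaga
Mcoln1: ggctgcagTGACCgcggcgcg
The windows of the first 4 are chr11:81152862-81152882, chr7:27165684-27165704, chr5:135934628-135934648 and chr1:75479457-75479477, all on the minus strand. Those of the other 4 are chr19:7206235-7206255, chr4:117887296-117887316 and chrX:9662934-9662954 on the minus strand and chr8:3500537-3500557 on the plus strand. Asic2, an acid-sensing channel, stood at 37.0 and 51.3 CPM in the inputs and 82.6, 110 and 63.5 CPM in the IP libraries, and held 11 sites in all. Chpf, a chondroitin synthesis enzyme, stood at 3.61 and 7.99 CPM against 91.4, 34.9 and 33.3 CPM, with 7 sites. Otub1, a deubiquitinase, stood at 353 and 855 CPM against 48.5, 71.6 and 141 CPM, with 3 sites, and Atp6v0b, of the proton pump of acidic organelles, at 852 and 827 CPM against 22.2, 116 and 211 CPM, with 1. The 4 genes above held 7 to 25 sites each and the 4 below 1 to 3. These picked genes do not stand for their sides. Any site was held by 889 of the 1870 genes above and 475 of the 2420 below. Of 314 naive sites inside the promoter windows, 312 carried the listed 5-mer in the RefSeq sequence.

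Over the mean of the 2 inputs, median enrichment in each IP library was higher the more miCLIP sites a gene held. In IP 1 the median was -0.03 for 10144 genes with no site, 0.28 for 1982 with 1, 0.59 for 1391 with 2 to 3, 0.95 for 794 with 4 to 7 and 1.20 for 394 with 8 or more. In IP 2 the medians were -0.59, -0.10, 0.08, 0.45 and 0.63. In IP 3, the library nearest the inputs, they were -0.16, 0.05, 0.17, 0.32 and 0.38, the same order over a narrower range. The difference between genes with 8 or more sites and genes with none was 1.0 ± 0.40 (mean ± SD over 3 IP libraries). It was 1.46 against input 1 alone and 0.54 against input 2 alone, and genes with many sites were themselves higher in input 2, with a median of -0.75 for log2 input 1 minus log2 input 2 at 8 or more sites. The values against 1 input are means over the 3 IP libraries. Whether the order in IP 3, with the narrowest range, holds against each input alone is not given here. All 3 IP libraries lay above both inputs for 9.67% of genes with no site and 25.1% of genes with 8 or more, and below both for 19.2% and 3.30%.

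Abundant transcripts were lower in the IP libraries, and sites were also counted within 5 equal bins of the level in naive wild-type RNA-seq, a separate assay of the series. From the lowest to the highest bin of level the median enrichment was 1.10, 0.65, 0.32, -0.10 and -1.44 in IP 1, 0.00, 0.06, 0.04, -0.24 and -1.29 in IP 2, and 0.06, 0.15, -0.00, -0.13 and -0.24 in IP 3. In the highest level bin, above 62.1 CPM, genes with no site had medians of -1.80, -1.69 and -0.34, and genes with 8 or more sites had 0.03, 0.05 and 0.03. In the lowest level bin the same 2 site bins had 0.91 and 2.55 in IP 1, -0.04 and 0.67 in IP 2, and -0.00 and 0.56 in IP 3. Averaged over the 5 level bins the difference between these site bins was 1.17. Ribosomal protein genes lay below their own level bin too: 74 of them were in the highest level bin, with medians of -3.71 and -4.15 in IP 1 and IP 2. Zfp genes lay above theirs in every level bin in these libraries, with medians from 0.59 to 1.76 in IP 1. Of the 529 genes called lower without IP 3, 465 (87.9%) were in the highest level bin, 1 of 5 equal bins, and 407 (76.9%) held no site. Over all tested genes 31.0% held a site, so most genes held none. In the highest level bin 1674 of 2941 genes held none.

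**Figure D4:**
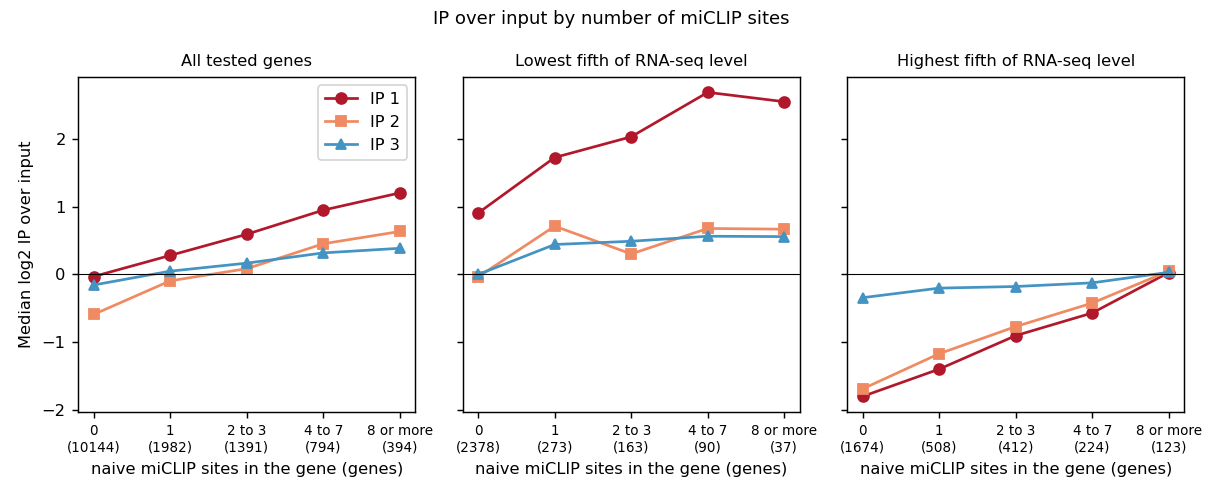
Median log2 IP over input (y axis) by the number of naive miCLIP sites in the gene (x axis, number of genes in brackets) for each naive IP library, over all tested genes and over the lowest and highest of 5 equal bins of RNA-seq level. The 8 or more bin lies above the 0 bin in every library and panel, and in the highest level bin it lies near 0.

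The genes with most naive sites were not all above the inputs. Of the 10 with 35 or more sites, 3 had all 3 IP libraries above both inputs (12.7% of all genes) and none had all below (16.5%). IP 1 and IP 2 lay above both inputs for 6 of the 10 (24.1% of all genes). Map1a, a microtubule-associated protein of neurons with 106 sites, stood at 68.6 and 164 CPM in the inputs and 456, 251 and 210 CPM in the IP libraries (log2 fold change 1.39, SE 0.94, adjusted p = 0.717). Nfe2l1, a transcription factor that induces proteasome genes, with 35 sites, stood at 74.4 and 81.4 CPM against 433, 171 and 104 CPM. Spock2, an extracellular proteoglycan with 40 sites, stood at 18.4 and 18.3 CPM against 77.0, 19.8 and 64.7 CPM. Map1b, with 63 sites, overlapped the inputs, at 2551 and 11070 CPM against 4248, 4595 and 4016 CPM. Prune2, with 43 sites, stood at 440 CPM in input 1 and 13250 CPM in input 2, against 1601, 370 and 398 CPM, with IP 1 between the inputs and IP 2 and IP 3 just below input 1. Plec, a cytoskeletal linker with 92 sites, stood at 54.6 and 97.8 CPM against 99.3, 400 and 55.3 CPM, with IP 2 apart. Phf24, Akap12, Apc2 and Ahnak, the other 4 of the 10, overlapped the inputs. Ngfr, the p75 neurotrophin receptor, with 31 sites, had every IP library above both inputs, at 9.401 and 31.1 CPM against 215, 37.7 and 93.6 CPM (log2 fold change 2.52, SE 1.13, adjusted p = 0.71).

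The 564 tested lncRNAs had medians of 0.56, -0.17 and 0.05, against 0.13, -0.32 and -0.06 for 14009 protein-coding genes and 0.20, 0.00 and 0.51 for 84 transcribed pseudogenes. All 3 IP libraries lay above both inputs for 18.7% of genes in the shortest of 5 equal span bins, up to 7.91 kb, and 10.4% of those in the longest. The span includes introns and is no measure of mature length. From the shortest to the longest bin the medians were 0.24, 0.04, -0.11, -0.20 and -0.24 in IP 3. In IP 1 they were 0.16, -0.01, -0.07, 0.14 and 0.55, lowest in the middle bin and highest in the longest.

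The order of classes after nerve lesion was set beside the naive values. Over the SNLD1 inputs, the SNLD1 IP libraries 1, 2 and 3 had medians of -2.28, -3.96 and 0.20 for cytoplasmic ribosomal proteins, -1.80, -2.58 and -0.10 for oxidative phosphorylation genes, 1.48, 0.96 and 0.00 for Zfp genes and 1.18, 0.81 and 0.53 for genes with 8 or more naive sites. Library 3 was the one nearest the inputs in both conditions. Libraries of 1 number resembled each other across conditions: the Spearman correlation of enrichment between naive and SNLD1, which share no library, was 0.88, 0.59 and 0.61 for numbers 1, 2 and 3 over 14705 genes. Within the naive set, pairs of IP libraries read over different inputs correlated between -0.01 and 0.56, the highest for IP 1 over input 2 with IP 2 over input 1. The difference in IP over input between naive and SNLD1 was called for 0 of 14705 genes higher in naive (0%) and 0 lower (0%) with edgeR, with 8 and 22 at an unadjusted p under 0.05, and for 0 with DESeq2. Of the 1870 genes with all naive IP libraries above both inputs, 704 also had all SNLD1 IP libraries above both SNLD1 inputs, which is 37.6% of the naive set and 46.3% of the 1519 such genes at SNLD1. Of the 2420 below, 1161 were below at SNLD1, 48.0% of the naive set and 65.3% of the 1778 at SNLD1. Over all 14705 tested genes, 1519 lay above and 1778 below at SNLD1. The part of the shared library numbers in this overlap was not tested.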

How the data were processed

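The naive comparison rests on a table of raw read counts per gene that the authors deposited for 10 wild-type m6A pulldown and input libraries. Per the submitters' processing notes, Trimmomatic, STAR, DESeq2 and the mm10 build were used, with no version or role; the sources used here do not give the counter or the caller of miCLIP sites. The deposited miCLIP lists give each site's motif, reads and, as a share of reads that is another kind of value, the mutated share.

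Counts were tested with edgeR 4.0.16 (TMM scaling, filterByExpr, quasi-likelihood test, Benjamini-Hochberg adjustment, threshold 0.05) over all 10 libraries in 4 groups, so that the groups share 1 estimate of spread; the contrast was naive IP over naive input. DESeq2 1.42.0 was an alternative. The procedure was tested on simulated counts. Symbols were matched to RefSeq (GRCm38.p6): 14060 tested genes by symbol, 609 by synonym and 36 not at all. Sites were assigned to gene spans, 307 of them to none and 357 to more than 1. Classes came from 56 gene lists. Members and lists were chosen with earlier results of these data known. Genes were drawn for naming from a rule that takes the 10 genes of smallest p in each direction with a mean of at least 5 CPM, up to 3 members of smallest p per list, all tested m6A machinery genes, 8 well-known genes and the 10 genes with most sites; not all are printed, and other genes are said to be chosen after their values were seen.

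Depth ran from 846785 to 12289449 counts per naive library, which limits IP 2 most. IP and input libraries share numbers in the labels, but IP 1 minus IP 2 and input 1 minus input 2 correlated at -0.30 across genes in naive and -0.06 at SNLD1, so the numbers were not taken to pair IP with input. Deviations of IP libraries of 1 number correlated between naive and SNLD1 at 0.68, 0.47 and 0.73.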

Additional observations from a re-analysis of the deposited data

How the results depend on the processing

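The count of genes called in IP over input, 0 in each direction, was also 0 with RLE size factors, library totals alone, a minimum of 5 CPM and the 5 naive libraries alone. Without a filter on low counts it was 3 higher and 6 lower, and DESeq2 gave 1 higher. With a replicate block within condition it was 0 higher and 150 lower. Alternatives chosen after seeing the data gave 48 higher and 1030 lower with a replicate block whose number all libraries share, 63 and 912 with a crossed replicate block, and 9 and 529 with 4 naive libraries without IP 3. Leaving out 1 naive library at a time gave 0 in each direction in the planned fit that also holds the SNLD1 libraries. In the added fits to 4 naive libraries it gave 0 to 9 higher and 0 to 529 lower, with calls only without IP 3. The cause of these shifts was not tested. The difference between naive and SNLD1 gave 0 calls in every alternative run, including each library left out. With library totals alone, also added, 1586 genes had all 3 IP libraries below both inputs.

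Leaving out 1 IP library, the mean median relative to all genes ranged from -3.74 to -1.64 for cytoplasmic ribosomal proteins (-2.36 with all 3), -2.33 to -1.12 for oxidative phosphorylation (-1.57), -2.00 to -0.56 for the proteasome (-1.19), -1.47 to -0.57 for translation factors (-0.93), 0.42 to 1.20 for Zfp genes (0.75), 0.69 to 1.19 for potassium channels (0.89) and 0.88 to 1.23 for genes with 8 or more sites minus genes with none (1.0). That site difference was 1.46 against input 1 alone and 0.54 against input 2 alone. Of 948 values for 50 single genes, 0 reversed and 101 passed the threshold under an alternative. The 50 included the genes of smallest p in these libraries, which had every IP library on 1 side of both inputs. Their sign could hardly reverse, so the 0 says little about other genes. IP 2, at 846785 counts, limits what low genes can show.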

Other observations

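Interferon-stimulated genes, which are induced by type I interferon and include antiviral effectors, had medians of 0.41, 0.64 and 0.52 in IP 1, IP 2 and IP 3 (22 tested), above those of all genes in each library. All 3 IP libraries lay above both inputs for 6 of them (27.3%, against 12.7% of all genes) and below both for 1 (4.55%, against 16.5%). Rtp4, a chaperone of receptor trafficking induced by interferon, stood at 32.6 and 21.4 CPM in the inputs and 93.9, 256 and 118 CPM in the IP libraries, the highest in IP 2. The inputs differed by a median of 1.01 for log2 input 1 minus log2 input 2 in this class, and the summed macrophage markers were 596 and 207 CPM in the inputs and 204, 675 and 202 CPM in the IP libraries. The part of immune cells in these values was not tested.

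The 16 TRP and Piezo transducers, channels of heat, irritants and touch, had medians of 0.44, -0.73 and -0.50, and 0 had all 3 IP libraries above both inputs (against 12.7% of all genes) while 4 (25%, against 16.5%) had all below. The 17 voltage-gated calcium channel genes had medians of 0.80, -0.63 and -0.06, with a median of -1.28 for log2 input 1 minus log2 input 2.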
